A study of Mus musculus with 20 samples.

Results

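A set of 10 genes near human Alzheimer's disease risk loci was followed in mouse cortex: Bin1, Picalm, Cd2ap, Sorl1, Ptk2b, Epha1, Mef2c, Cass4, Fermt2 and Abi3. Apart from Mef2c, a transcription factor, these genes have products that act in endocytosis, cargo sorting, adhesion or the cytoskeleton. They were taken by symbol from the annotated count table, by a rule that uses no measured value, although earlier results of these data were known when the set was proposed. All 10 were found among 43346 rows, each with 1 row, and all 10 were among the 19623 genes that passed the low-count filter and were tested. Expression was measured by bulk RNA-seq in 20 cortex libraries in 4 groups of 5. The groups were knockin (KI) mice at 10 months, KI mice at 3 months, control mice at 10 months and control mice at 3 months. All mice were 5xFAD+/-, so amyloid-forming human transgenes were present in every group and no group without them was analysed here. Control mice had wild-type Abca7 and KI mice carried a knocked-in Abca7 substitution, called A693S in the protocol and A696S in the study's title. The protocol names both heterozygous and homozygous knockin animals, and the label KI does not give the zygosity of a library. It speaks of male animals. The study asked what the substitution does to amyloid pathology and the immune response of the brain.

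As background, endocytosis brings membrane proteins, the amyloid precursor protein among them, from the cell surface into endosomes, where they are recycled, sent to lysosomes or cut. Picalm recruits clathrin coats to the membrane, Bin1 bends membrane tubules, Cd2ap links endocytic cargo to actin, and Sorl1 is a sorting receptor that carries the amyloid precursor protein out of endosomes with the retromer coat. Fermt2 (kindlin-2) activates integrins, Ptk2b (Pyk2) is a focal adhesion kinase activated by calcium, Cass4 is a focal adhesion scaffold, and Epha1 is a receptor for ephrins. Mef2c is a transcription factor of neurons and microglia. Abi3 belongs to the Abi family of subunits of the WAVE complex, which drives actin branching, and in brain it is known mainly from microglia, the resident macrophages.

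Libraries held from 42896149 to 57447015 counts. Checked against cell markers, 12 neuronal genes summed to between 11654 and 13398 CPM (counts scaled to a common library total) in every library. Several libraries stood apart. KI replicate 3 at 3 months lay far from the rest on the second principal component (55.2, with 14.4% of the variance). In KI replicate 5 at 10 months Xist had 54206 counts and Ddx3y, a Y-linked gene, 1, against at most 218 and at least 2382 counts in the other 19 libraries, which goes against the protocol's male animals. Thalamic markers were called lower at 10 than at 3 months for 8 of 10 tested genes in KI and 1 of 10 in control (0 without control replicates 8 and 10 at 3 months), and their summed level ran from 173 to 194 CPM in KI at 10 months, 229 to 413 CPM in KI at 3 months, 167 to 202 CPM in control at 10 months and 185 to 318 CPM in control at 3 months. Their part in the results was not tested. Where leaving out these libraries ended the call of a gene named here or moved a count by over 1.5 times, the value without them stands beside the result. Nothing in the labels ties a library to 1 animal, and all p-values rest on library-to-library spread. Abca7 averaged 24.1 ± 4.08 CPM in KI and 27.04 ± 4.33 CPM in control at 10 months, and 25.4 ± 4.88 CPM in KI and 28.2 ± 1.38 CPM in control at 3 months (SD, n = 5 each). A substitution does not show in counts per gene, so these levels do not check the genotype.

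The 10 genes covered a wide range of levels. Compared per kilobase of the length given in the table, Mef2c was the most abundant over the 20 libraries at 119.7 ± 12.4 CPM per kb (SD, n = 20), followed by Bin1 at 77.7 ± 7.81, Ptk2b at 66.8 ± 4.42, Picalm at 42.3 ± 4.15, Sorl1 at 38.5 ± 3.77 and Fermt2 at 23.5 ± 2.23 CPM per kb. Cd2ap stood at 6.89 ± 0.861 and Abi3 at 1.14 ± 0.444 CPM per kb. Epha1 at 0.0957 ± 0.0366 and Cass4 at 0.0954 ± 0.0326 CPM per kb were the lowest. Picalm and Sorl1 differed by less than the SD of Picalm, and Epha1 and Cass4 by less than the SD of either. The order depends on the length used: divided by the exonic bases of GENCODE M21, Ptk2b led at 66.8, ahead of Mef2c at 51.5 and Bin1 at 46.2 CPM per kb, and Picalm fell below Fermt2 at 11.2 against 16.9 CPM per kb. Epha1 rested on 5 to 23 counts per library and Cass4 on 11 to 45, so the precision of their values is limited by counting error.

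**Figure D1:**
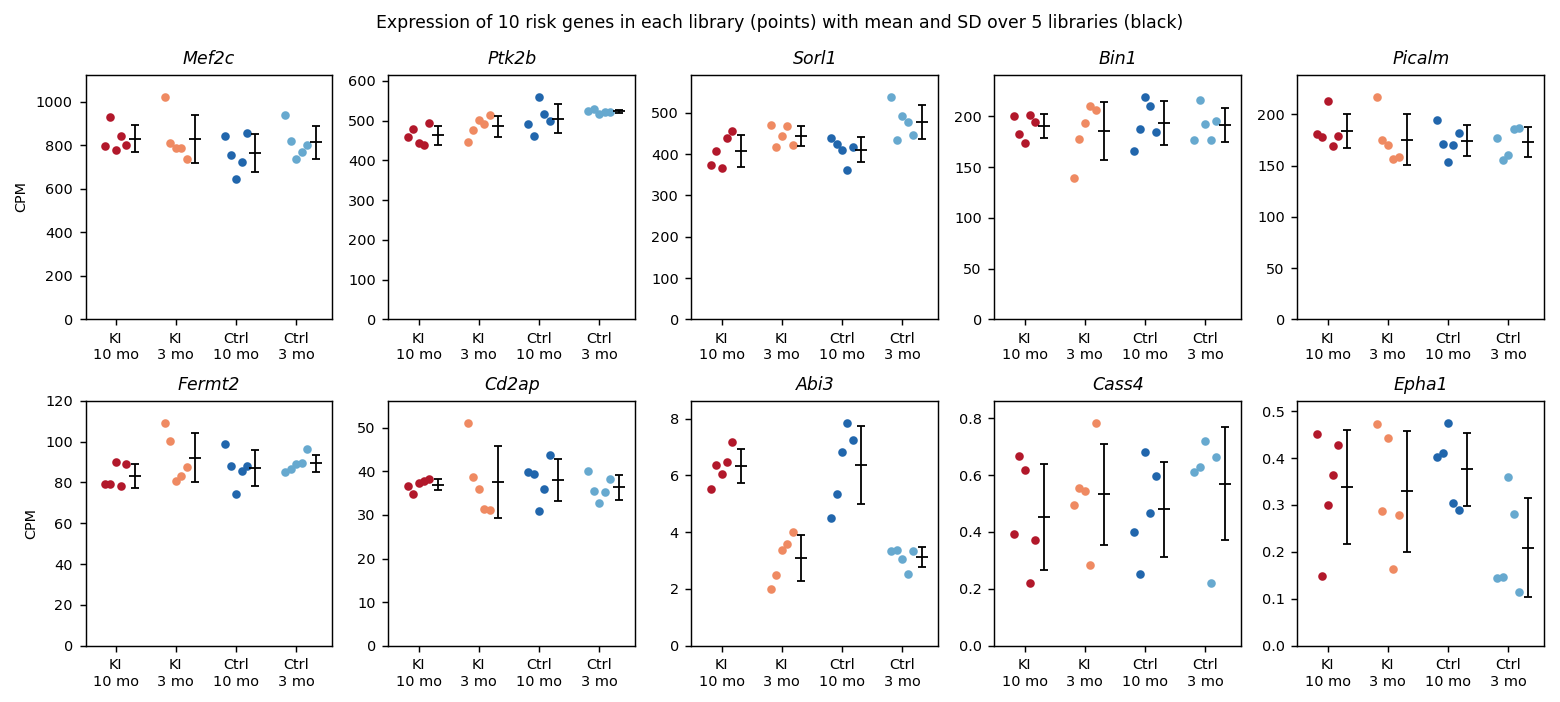
Expression of the 10 genes in CPM, from an axis that starts at 0, with 1 point per library and the mean and SD of 5 libraries in black; KI and Ctrl (control) are shown at 10 and at 3 months (mo). Abi3 was at 5.53 CPM or more in every KI library at 10 months and at 4.00 CPM or less in every KI library at 3 months, while the groups of the other genes overlapped with age in both genotypes.

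Age separated Abi3 from the other 9 genes. Abi3 rose 2.04-fold between 3 and 10 months in KI cortex (95% confidence interval 1.60 to 2.60) and 2.04-fold in control cortex (1.60 to 2.60), and it was the only one of the 10 genes called in either genotype. In KI libraries Abi3 (chromosome 11, 95830074 to 95842476, minus strand, mm10) stood at 5.53, 6.38, 6.04, 6.49 and 7.19 CPM at 10 months, against 2.01, 2.51, 3.37, 3.58 and 4.00 CPM at 3 months. In control libraries it stood at 4.51, 5.35, 6.83, 7.84 and 7.23 CPM at 10 months, against 3.33, 3.38, 3.06, 2.51 and 3.34 CPM at 3 months. Every library at 10 months was above every library at 3 months within each genotype. The log2 fold change was 1.03 ± 0.17 in KI (SE, adjusted p = 0.000317) and 1.03 ± 0.17 in control (SE, adjusted p = 0.000426), by edgeR's quasi-likelihood test with Benjamini-Hochberg adjustment over all tested genes. Without both KI libraries in doubt (replicate 3 at 3 months and replicate 5 at 10 months) Abi3 rose by 0.92 ± 0.17 in KI on the log2 scale (adjusted p = 0.00104), and without control replicates 8 and 10 at 3 months, which scored high for thalamus, by 1.05 ± 0.20 in control (adjusted p = 0.00497). That 1 gene of 10 compares with 8.06% of all tested genes called with age in KI and 4.07% in control, and with 5.66% and 3.72% called higher, so the count itself does not set the 10 genes apart. Of all tested genes, 5.34% in KI and 4.56% in control had every library at 10 months above every library at 3 months.

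Microglial markers rose over the same ages. Of 16 markers of microglia, 14 rose with age in KI and 12 in control, and of 15 genes of plaque-associated microglia, 15 and 14 rose. The 16 microglial markers summed to between 1004 and 1291 CPM in KI at 10 months and between 467 and 538 CPM in KI at 3 months. In control they summed to between 831 and 1092 CPM at 10 months and between 416 and 528 CPM at 3 months. In bulk tissue more cells of a type and more RNA per cell cannot be told apart. Abi3 was therefore also set against the markers, a measure chosen after the data were seen: its log2 CPM minus the mean centred log2 CPM of the 16 markers. By that measure Abi3 averaged 2.10 ± 0.22 at 10 months and 2.08 ± 0.31 at 3 months in KI (SD, n = 5 each), a difference of 0.02 (2-sided exact permutation p = 0.905, adjusted over 4 comparisons 0.905). In control it averaged 2.25 ± 0.19 at 10 months and 2.15 ± 0.21 at 3 months (SD, n = 5 each), a difference of 0.10 (exact permutation p = 0.452, adjusted 0.904). No age difference in Abi3 relative to the markers was detected, which does not show that the ratio was equal. Within groups, over 20 libraries, the deviation of Abi3 from its group mean correlated with that of the microglial score at r = 0.57 and with that of the neuronal score at r = 0.73, values given as a description.

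The genes whose level ran most like that of Abi3 over the 20 libraries, among genes with a mean of at least 1 CPM, were Cyth4, Bin2 and Baiap2l2, and within groups their deviations correlated with that of Abi3 at r = 0.87, 0.85 and 0.78. Abi3 shares 75.8% of its 4153 exonic bases in GENCODE M21 with genes on the opposite strand: 2913 bases with Zfp652, 1708 with Phospho1 and 234 with Gngt2, with some bases in more than 1 of the 3. The strand setting of the counting is not given in the sources used here, so reads in the shared bases may have been counted for either gene or for none. Zfp652, a zinc finger gene, and Phospho1, a phosphatase gene, were not called with age: Zfp652 averaged 85.3 CPM at 10 months and 82.5 CPM at 3 months in KI (log2 fold change 0.05, adjusted p = 0.657), and Phospho1 averaged 13.6 CPM at 10 months and 12.04 CPM at 3 months in KI (log2 fold change 0.18, adjusted p = 0.508). Gngt2, which encodes a G protein gamma subunit, rose with age, to 4.78 CPM against 2.05 CPM in KI (log2 fold change 1.22 ± 0.17, adjusted p = 4.44e-05) and to 4.12 CPM against 1.89 CPM in control (1.12 ± 0.17, adjusted p = 0.000173), each adjusted p from edgeR. How far the counts of Abi3 and Gngt2 share reads was not tested.

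**Figure D2:**
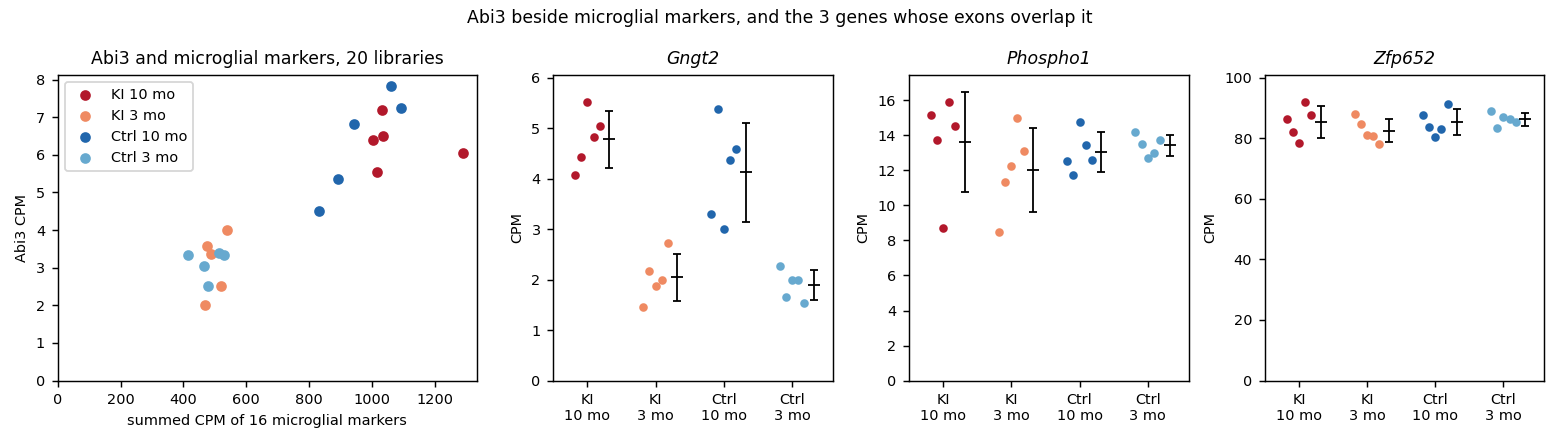
Left, Abi3 in CPM against the summed CPM of 16 microglial markers, 1 point per library, coloured by group; right, CPM of the 3 genes whose exons overlap Abi3 on the other strand, with the mean and SD of 5 libraries in black. The 10 libraries from 10-month mice lie at or above 831 CPM of microglial markers and 4.51 CPM of Abi3, and the 10 libraries from 3-month mice lie below both; Gngt2 was higher at 10 months in both genotypes, while Phospho1 and Zfp652 were not called.

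None of the other 9 genes was called with age by edgeR in either genotype. Sorl1, the sorting receptor, came nearest among the abundant genes. Sorl1 (chromosome 9, 41964720 to 42124297) stood at 439, 425, 411, 362 and 418 CPM in control at 10 months, against 539, 435, 492, 478 and 447 CPM in control at 3 months. At 10 months 4 of 5 control libraries were below the lowest control library at 3 months, and the groups overlapped through replicate 6. The log2 fold change was -0.22 ± 0.07 (SE, 95% confidence interval -0.37 to -0.07, adjusted p = 0.116 by edgeR, and 0.0558 by DESeq2). Limma-voom with quality weights called Sorl1 (-0.23 ± 0.07, adjusted p = 0.0385). In KI, Sorl1 stood at 374, 408, 367, 438 and 456 CPM at 10 months, against 471, 417, 443, 467 and 422 CPM at 3 months, with groups that overlapped and a log2 fold change of -0.12 ± 0.07 (SE, adjusted p = 0.365). The difference between the genotypes in the age effect on Sorl1 was 0.10 ± 0.10 (SE, adjusted p = 0.999), so neither genotype was shown to differ from the other.

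Epha1, the ephrin receptor, had the fewest counts of the 10 genes and was not called with age. Epha1 (chromosome 6, 42358487 to 42373268) stood at 0.401, 0.412, 0.475, 0.305 and 0.289 CPM in control at 10 months, against 0.144, 0.147, 0.360, 0.281 and 0.114 CPM in control at 3 months. Those groups overlapped. The log2 fold change was 0.84 ± 0.35 (SE, adjusted p = 0.262), and in KI it was 0.05 ± 0.33 (adjusted p = 0.958), both by edgeR. Markers of choroid plexus, the secretory tissue of the brain ventricles, varied widely between libraries, with a summed level of 27.7 to 1316 CPM in KI at 10 months, 65.05 to 2252 CPM in KI at 3 months, 31.7 to 2144 CPM in control at 10 months and 53.8 to 1436 CPM in control at 3 months. With age, 10 of 10 of these markers were above 0 in control (median log2 fold change 0.75) and 0 of 10 in KI (median -1.06), and none was called. Within groups Epha1 deviated together with their score at r = 0.69 over 20 libraries, and their part in its values was not tested. Epha1 shares 236 exonic bases with Zyx on the other strand. Cass4, the focal adhesion scaffold, ran from 0.219 to 0.668 CPM in KI at 10 months, 0.285 to 0.783 in KI at 3 months, 0.252 to 0.681 in control at 10 months and 0.221 to 0.719 in control at 3 months. All 4 ranges overlapped, and 21.2% of its exonic bases are shared with the antisense gene Gm14455.

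The endocytic adaptors and the remaining genes had age differences whose intervals lay close to 0. Bin1, which bends membranes, averaged 191 ± 12.2 CPM at 10 months and 186 ± 28.6 CPM at 3 months in KI (SD, n = 5 each), with a log2 fold change of 0.04 (95% confidence interval -0.16 to 0.24). Picalm, the clathrin adaptor, averaged 184 ± 16.8 CPM at 10 months and 175 ± 24.7 CPM at 3 months in KI, a log2 fold change of 0.07 (-0.11 to 0.25). Cd2ap, which joins cargo to actin, averaged 36.96 ± 1.28 CPM at 10 months and 37.6 ± 8.21 CPM at 3 months in KI, a log2 fold change of -0.02 (-0.26 to 0.21). In control the same 3 genes had log2 fold changes of 0.02, 0.01 and 0.06. Fermt2, the integrin activator, had a log2 fold change of -0.15 ± 0.08 in KI and -0.04 ± 0.08 in control (SE), Ptk2b of -0.07 ± 0.05 and -0.05 ± 0.05, and Mef2c of 0.00247 ± 0.0913 and -0.09 ± 0.09. Every one of these intervals held 0. Cd2ap has copies that its counts could share reads with: Gm49797, 96.6% identical over 2018 bases, and Gm6475, 96.1% over 1830 bases. Over the 10 genes the median age difference was -0.01 in KI and -0.01 in control on the log2 scale, beside a median over all tested genes of -0.00314 and -0.00338.

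**Figure D3:**
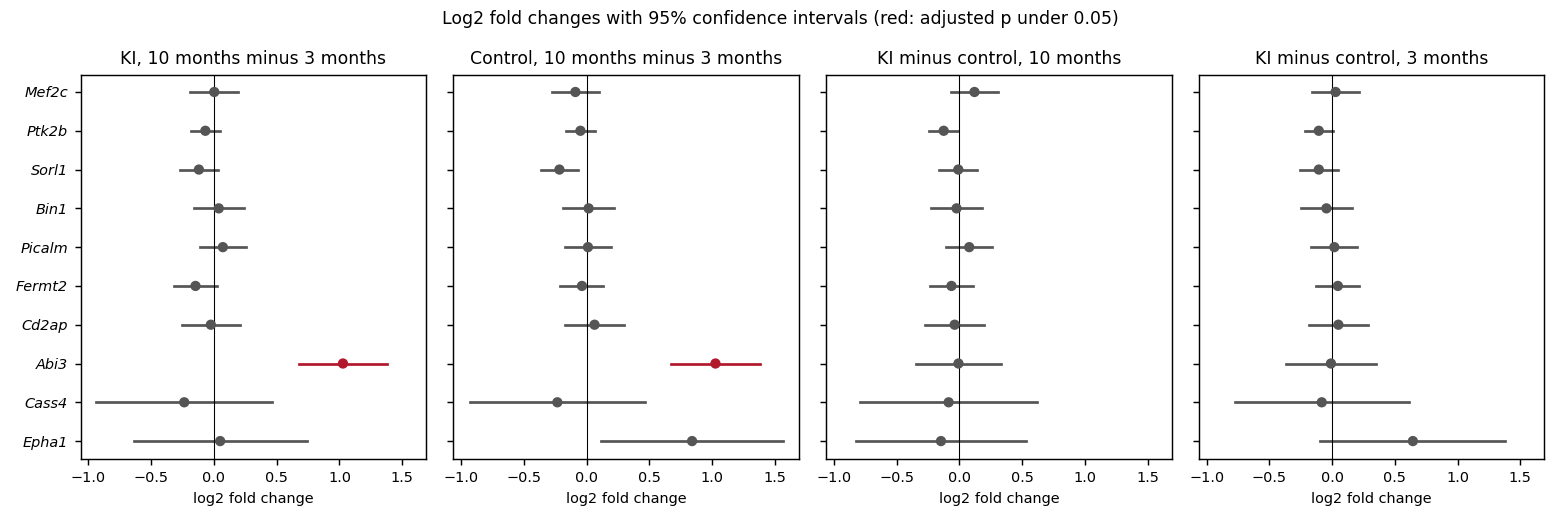
Log2 fold changes of the 10 genes with their 95% confidence intervals in 4 comparisons: 10 minus 3 months in KI, 10 minus 3 months in control, KI minus control at 10 months and KI minus control at 3 months, with calls at an adjusted p under 0.05 in red. Abi3 with age, at 1.03 in both genotypes, is the only call; the intervals of Epha1 and Cass4 are the widest.

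The comparison of KI with control asks whether the Abca7 substitution goes with a change in these genes. None of the 10 was called by edgeR at 10 months (lowest adjusted p 0.585) or at 3 months (lowest adjusted p 1), beside 0.0612% and 0.0255% of all tested genes called at those ages. At an unadjusted p under 0.05 there was 1 gene at 10 months (Ptk2b, with 7.86% of all genes) and 0 at 3 months (3.8% of all genes), and DESeq2 and limma-voom also called 0 at both ages. Averaged over both ages 0 of the 10 were called, beside 0.0764% of all genes, with 1 at an unadjusted p under 0.05 (Ptk2b again, with 6.52% of all genes). No gene of the whole table passed for genotype by age (0% called by edgeR, 883 genes or 4.5% at an unadjusted p under 0.05, none of them among the 10). With so few calls over the whole table, 0 of 10 does not set these genes apart either.

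Ptk2b, the calcium-activated kinase (chromosome 14, 66153257 to 66281052), had the smallest unadjusted p of the 10 genes at 3 months, at 10 months and averaged over ages. Ptk2b stood at 445, 477, 500.4, 491 and 514 CPM in KI at 3 months, against 525, 528, 516, 522 and 522 CPM in control at 3 months. The 5 KI libraries were all below the 5 control libraries, a separation in that direction that 0.352% of all tested genes had, and the control libraries lay close together. The log2 fold change at 3 months was -0.11 ± 0.05 (SE, unadjusted p = 0.063, adjusted p = 1), and -0.07 ± 0.05 without KI replicate 3 (unadjusted p = 0.18). At 10 months Ptk2b stood at 459.7, 479, 444, 438 and 494 CPM in KI, against 490.03, 461, 559.6, 516 and 499 CPM in control. These groups overlapped, with a log2 fold change of -0.13 ± 0.05 (SE, unadjusted p = 0.0314, adjusted p = 0.585). Averaged over ages it was -0.12 ± 0.04 (unadjusted p = 0.00657, adjusted p = 0.56), all by edgeR, so Ptk2b was not called. Within groups, Ptk2b deviated together with the neuronal score at r = 0.70 over 20 libraries, a description with no test. With the score of 10 tested striatal markers its r was 0.54 over 20 libraries and 0.42 within groups. Of these markers, 1 of 10 was above 0 in KI against control at 3 months (median log2 fold change -0.15). At 10 months it was again 1 of 10 (median -0.14). None was called, and their part in the Ptk2b values was not tested. The genes whose level ran most like that of Ptk2b over the 20 libraries were Hdac4, Gng7 and Wscd2, with r = 0.84, 0.84 and 0.82, and within groups 0.68, 0.74 and 0.72.

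For the other 9 genes the intervals state how large a genotype difference could have gone undetected. Abi3 averaged 6.33 ± 0.609 CPM in KI and 6.36 ± 1.38 CPM in control at 10 months (SD, n = 5 each), with a 95% confidence interval of the log2 fold change from -0.35 to 0.33. At 3 months Abi3 averaged 3.09 ± 0.814 CPM in KI and 3.12 ± 0.365 CPM in control, with an interval from -0.37 to 0.35. Relative to the microglial markers Abi3 differed between KI and control by -0.15 at 10 months (exact permutation p = 0.254, adjusted 0.904) and by -0.07 at 3 months (exact permutation p = 0.714, adjusted 0.905; 5 libraries a group). At 10 months the interval ran from -0.22 to 0.18 for Bin1, from -0.11 to 0.26 for Picalm, from -0.27 to 0.19 for Cd2ap, from -0.16 to 0.14 for Sorl1, from -0.07 to 0.31 for Mef2c and from -0.24 to 0.11 for Fermt2. At 3 months it ran from -0.25 to 0.15 for Bin1, from -0.17 to 0.20 for Picalm, from -0.18 to 0.28 for Cd2ap, from -0.26 to 0.04 for Sorl1, from -0.16 to 0.22 for Mef2c and from -0.13 to 0.22 for Fermt2. Epha1 and Cass4 had much wider intervals. For Cass4 they ran from -0.79 to 0.62 at 10 months and from -0.78 to 0.61 at 3 months. Epha1 averaged 0.338 CPM in KI and 0.376 CPM in control at 10 months, a log2 fold change of -0.15 (-0.83 to 0.53), and 0.329 CPM in KI and 0.209 CPM in control at 3 months, a log2 fold change of 0.64 (-0.09 to 1.38, unadjusted p = 0.0841, adjusted p = 1, edgeR). That value at 3 months was the largest genotype difference of the 10 genes at either age, and the groups overlapped at both ages. The value at 10 months changed sign when 1 library was left out (range -0.27 to 0.032), so no direction is given for it. Choroid plexus markers had 0 of 10 above 0 in KI against control at 10 months (median log2 fold change -0.91). At 3 months 10 of 10 were above 0 (median 0.91). None of them was called, and their part in the Epha1 values was not tested.

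Within groups, some of the 10 genes moved together from library to library. Bin1 ran against Picalm, Cd2ap, Fermt2 and Mef2c. Picalm, Cd2ap and Fermt2 ran with each other, and Mef2c ran with Cd2ap, while its r with Picalm and Fermt2 was lower and rested in part on 1 library. The measure was the deviation of each library's log2 CPM from its group mean, over 20 libraries, and the correlations are given as a description: the libraries share their scaling and depth, and 1 library weighs heavily. Of 45 pairs, 9 reached an r of 0.7 in size, 4 of them below 0. The share of all gene pairs that reach this size was not tested, so the count does not set the 10 genes apart. Genes outside the set, picked as most alike among 13869 genes, ran closer with Bin1 and Picalm than any of these pairs did. Within groups r was 0.963 for Bin1 with Rpl8, 0.967 with Gpr137 and 0.958 with Fkbp8. For Picalm it was 0.961 with Syap1, 0.985 with Ccnc and 0.967 with Cnot2. Bin1 and Picalm had r = -0.89 (Spearman's rho -0.84), and r = -0.80 over the 18 libraries left without the 2 farthest from the median of Bin1. Cd2ap and Mef2c had r = 0.81 (rho 0.77, 0.65 over 18 libraries), Picalm and Fermt2 had r = 0.79 (rho 0.77, 0.69 over 18), and Bin1 and Abi3 had r = 0.79 (rho 0.71, 0.59 over 18). Of the 9 pairs, 7 kept their sign and a size of at least 0.5 without 2 such libraries, and the exceptions were Bin1 with Mef2c (-0.50) and Cd2ap with Fermt2 (0.48).

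KI replicate 3 at 3 months stood at the end of this pattern. It had the lowest Bin1 of all 20 libraries, 140 CPM, where the other KI libraries at 3 months had 178, 194, 210.2 and 207 CPM. It also had the highest Picalm (217 CPM), Cd2ap (51.1 CPM), Fermt2 (109 CPM) and Mef2c (1023 CPM). Without it, over 19 libraries, the correlation within groups was -0.81 for Bin1 and Picalm, -0.60 for Bin1 and Cd2ap, -0.63 for Bin1 and Fermt2 and -0.53 for Bin1 and Mef2c. Mef2c and Picalm had r = 0.32 without it, against 0.57 with it, and Mef2c and Fermt2 0.24 against 0.47. Mef2c and Cd2ap had r = 0.70 without it, and the 3 pairs among Picalm, Cd2ap and Fermt2 had 0.615 (Picalm and Cd2ap), 0.695 (Picalm and Fermt2) and 0.562 (Cd2ap and Fermt2). A property of whole libraries moved with most of the 10 genes: the mean log2 length of genes weighted by their counts, a measure added after the data were seen. Within groups it correlated with Cd2ap at r = 0.84, with Mef2c at 0.73, with Fermt2 at 0.67, with Sorl1 and Picalm at 0.57 each, with Bin1 at -0.76, with Abi3 at -0.64 and with Ptk2b at -0.62 (n = 20). Without KI replicate 3 at 3 months these values were 0.74 for Cd2ap, 0.58 for Mef2c, 0.53 for Fermt2, 0.56 for Sorl1, 0.33 for Picalm, -0.61 for Bin1, -0.46 for Abi3 and -0.49 for Ptk2b (n = 19). The score of 12 neuronal markers correlated within groups with Bin1 at 0.83 and with Picalm at -0.88. The part of either in the covariation was not tested.

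**Figure D4:**
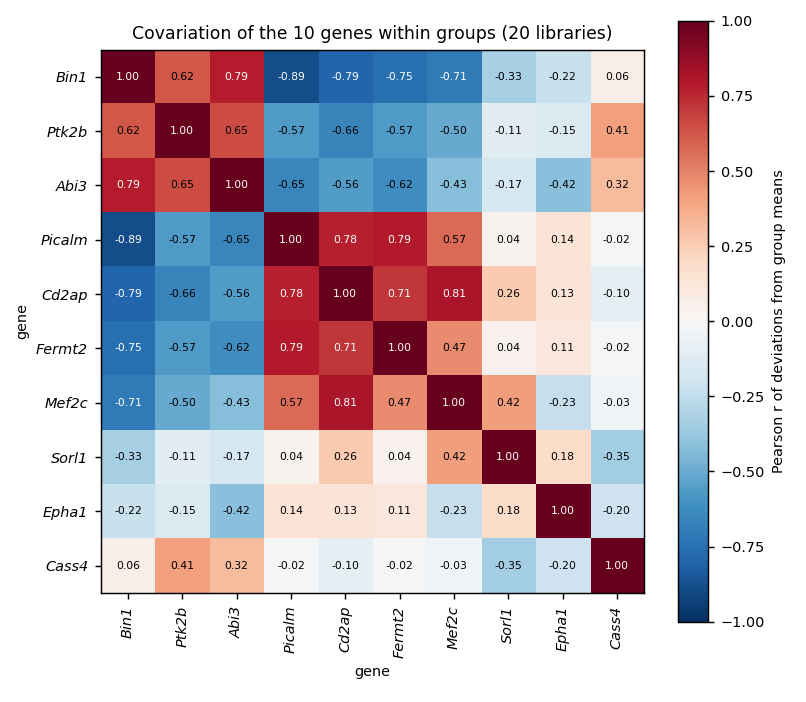
Pearson r between the deviations of the 10 genes from their group means in log2 CPM over 20 libraries, as a heat map from -1 (blue) to 1 (red). Bin1, Ptk2b and Abi3 have positive r with each other, as do Picalm, Cd2ap, Fermt2 and Mef2c, and r between these sets is negative, down to -0.89 for Bin1 and Picalm; without KI replicate 3 at 3 months r of Mef2c is 0.32 with Picalm and 0.24 with Fermt2.

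RefSeq promoter sequences (build GRCm38.p6, 250 bases before to 50 after the start), taken by symbol, are described for 7 of the 10 genes. Bin1, Ptk2b and Abi3 are not among them, which does not show that they have no entry. The promoter of Bin1, which ran against the genes shown, was thus not compared with theirs. Picalm, Cd2ap and Fermt2 are shown because they ran together within groups. Mef2c is shown because it ran with Cd2ap, while its r with the other two rested in part on KI replicate 3 at 3 months. They were chosen after the correlations were seen. Capitals mark the GC box, searched as GGGCGG and its complement CCGCCC. Picalm lies on chr7:90129963-90130262 (plus strand), Cd2ap on chr17:42876375-42876674 (minus strand), Fermt2 on chr14:45530016-45530315 (minus strand) and Mef2c, shown at the first by position of its 3 listed starts, on chr13:83503784-83504083 (plus strand).
Picalm: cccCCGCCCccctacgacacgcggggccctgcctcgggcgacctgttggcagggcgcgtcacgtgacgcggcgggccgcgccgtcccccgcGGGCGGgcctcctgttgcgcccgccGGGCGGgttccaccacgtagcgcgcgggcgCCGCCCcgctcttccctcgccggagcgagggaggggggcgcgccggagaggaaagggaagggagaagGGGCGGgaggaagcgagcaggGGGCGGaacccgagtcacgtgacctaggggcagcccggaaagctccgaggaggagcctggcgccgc
Cd2ap: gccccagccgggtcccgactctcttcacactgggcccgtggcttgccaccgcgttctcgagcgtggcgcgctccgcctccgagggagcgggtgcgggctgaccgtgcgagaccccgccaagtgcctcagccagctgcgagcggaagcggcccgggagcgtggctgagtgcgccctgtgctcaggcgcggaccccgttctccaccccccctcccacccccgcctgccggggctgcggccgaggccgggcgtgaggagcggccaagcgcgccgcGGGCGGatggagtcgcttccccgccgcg
Fermt2: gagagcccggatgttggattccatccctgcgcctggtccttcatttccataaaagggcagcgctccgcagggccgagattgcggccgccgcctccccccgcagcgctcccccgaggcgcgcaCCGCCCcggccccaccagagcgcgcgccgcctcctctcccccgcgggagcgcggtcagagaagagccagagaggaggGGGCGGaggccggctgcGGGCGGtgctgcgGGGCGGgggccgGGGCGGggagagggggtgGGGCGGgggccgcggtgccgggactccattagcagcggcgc
Mef2c: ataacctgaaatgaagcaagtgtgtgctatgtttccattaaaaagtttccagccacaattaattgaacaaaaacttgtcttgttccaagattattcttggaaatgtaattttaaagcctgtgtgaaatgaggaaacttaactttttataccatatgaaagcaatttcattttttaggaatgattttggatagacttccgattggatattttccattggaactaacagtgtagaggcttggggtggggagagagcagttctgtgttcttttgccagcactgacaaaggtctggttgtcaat
Picalm held 6 GC boxes and 44 CpG sites, Fermt2 6 GC boxes and 37 CpG sites, Cd2ap 1 GC box and 41 CpG sites, and the Mef2c start shown held 0 GC boxes and 1 CpG site. Of 32851 mouse promoters of this length, 35.7% held at least 1 GC box, and the median was 7 CpG sites, with an upper quartile of 20. The other 2 listed Mef2c starts held 10 CpG sites with 1 GC box and 4 CpG sites with 0 GC boxes. Picalm, Cd2ap and Fermt2 had more CpG sites than any of the 3 Mef2c starts, 1 of which lay above the median. Sorl1, matched but not shown, held 37 CpG sites and 1 GC box at 1 start. Its other start held 9 CpG sites and 0 GC boxes. Epha1 held 14 CpG sites and 3 GC boxes, and Cass4 6 CpG sites and 0 GC boxes. Within groups Sorl1 had r = 0.04 with Picalm, 0.04 with Fermt2 and 0.26 with Cd2ap. A promoter rich in CpG sites was thus not particular to the genes that ran together. A match is a description of letters and not of a bound site.

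Partner genes of the same processes were described by lists of the clathrin, sorting, integrin, actin and Eph pathways. The calls with age are read against the whole table, in which 5.66% of tested genes were called higher and 2.41% lower in KI, and 3.72% higher and 0.357% lower in control. In clathrin endocytosis 1 of 36 genes rose and 1 fell in KI, and 1 rose in control, with a list median of -0.08 in KI and -0.09 in control on the log2 scale. In neither genotype was the share called higher above that of the whole table. The gene that rose in both was Bin2, a relative of Bin1 known from blood cells and microglia, by 0.69 ± 0.13 in KI and 0.79 ± 0.13 in control (SE, adjusted p = 0.00142 and 0.000425, edgeR). Synj2, a lipid phosphatase of endocytosis, fell by 0.26 in KI on the log2 scale (adjusted p = 0.0164, edgeR). That call was lost in 3 of 30 alternatives. They were the fit with only the compared libraries (adjusted p = 0.0527, edgeR) and the omission of KI replicate 3 at 10 months (0.0669) or KI replicate 6 at 3 months (0.0553). Of 19 retromer and sorting genes, the partners of Sorl1, 1 was called higher in KI (Snx5, a sorting nexin, by 0.28, adjusted p = 0.043) and 0 in control (lowest adjusted p 0.3), a share in KI close to that of the whole table. The Snx5 call was lost in 18 of 30 alternatives, the omission of KI replicate 5 at 10 months (adjusted p = 0.0915) among them, with log2 fold changes from 0.23 to 0.37.

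In integrin adhesion, the process of Fermt2, Ptk2b and Cass4, 8 of 32 genes rose in KI and 6 in control, and none fell, beside 5.66% and 3.72% of all tested genes called higher. Without both KI libraries in doubt 5 rose in KI, and without control replicates 8 and 10 at 3 months 4 rose in control. Itgb2, the beta chain of leukocyte integrins, in KI libraries had 14.01 CPM at 10 months, with 5.20 CPM at 3 months (log2 fold change 1.43 ± 0.13) and in control libraries 15.1 CPM at 10 months, with 4.63 CPM at 3 months (1.70 ± 0.13). Itgam, its alpha partner, rose by 0.85 in KI and 0.84 in control, Itgb5 by 0.89 and 0.77, and Itgb3 by 0.60 and 0.50. The call of Itgb3 in control was lost without control replicates 8 and 10 at 3 months (adjusted p = 0.0855). Fermt3, the kindlin of blood cells and a paralog of Fermt2, was singled out after its values were seen and rose by 0.83 in KI and 0.95 in control. Among 28 genes of actin branching, the process of Abi3, 4 rose in each genotype and none fell, beside the same 5.66% and 3.72%. They were Nckap1l, a WAVE complex subunit of blood cells (1.06 ± 0.09 in KI, 0.86 ± 0.09 in control), Was (1.11 and 0.86), Rac2 (0.92 and 1.07) and Arpc1b, a subunit of the Arp2/3 complex (0.72 and 0.69). All of these were called by edgeR in both genotypes. The call of Arpc1b in control was lost when any 1 of 6 control libraries was left out (replicates 8, 9 and 10 at 10 months, and 6, 9 and 10 at 3 months; adjusted p 0.056 to 0.086), and without replicates 8 and 10 at 3 months together (0.117). Microglial markers rose beside them, as given above for Abi3, and their part in the list counts was not tested.

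Among 21 Eph receptors and ephrins, the relatives of Epha1, 2 fell in KI, Epha6 by 0.68 and Epha3 by 0.51 on the log2 scale (adjusted p = 0.0139 and 0.0429, edgeR), and 0 were called in control (lowest adjusted p 0.207), beside 2.41% of all tested genes called lower in KI. Called or not, 3 of the 21 were above 0 with age in KI (list median -0.15) and 1 of 21 in control (-0.11). The lower values were thus not confined to KI. The Epha3 call was lost in 13 of 30 alternatives, the omission of KI replicate 3 at 3 months (adjusted p = 0.0984) among them, and the Epha6 call in 3 of 30, with the omission of KI replicate 4 at 3 months (0.0533) among them. Thalamic markers were lower in the same comparison, and their part was not tested. Of 6 tested genes among the MEF2 family and class IIa histone deacetylases, which bind Mef2c, Hdac9 fell by 0.36 in KI (adjusted p = 0.0163) and 0 were called in control (lowest adjusted p 0.314). Without both KI libraries in doubt Hdac9 was not called (-0.27, adjusted p = 0.0744). Of 26 tested genes at other risk loci, 5 rose and 1 fell in KI and 6 rose in control, beside 8.06% and 4.07% of all tested genes called in either direction. In KI the gene that fell was Tmem163, not called in 11 of 30 alternatives. Omission of KI replicate 5 at 10 months was among them (adjusted p = 0.0622, edgeR). Adam17, which rose in control, was not called in 13 of 30. Omission of control replicates 8 and 10 at 3 months was among those (adjusted p = 0.159, edgeR). Ctsh, a lysosomal protease, rose by 1.16 in KI and 0.89 in control, Grn, the lysosomal protein progranulin, by 0.82 and 0.77, and Rhoh, a GTPase of blood cells, by 1.08 and 0.74. Whether the age effect of each gene differed between KI and control was tested by genotype and age, and no gene of the table passed; the counts themselves were not tested against each other. In the comparison of KI with control, 0 genes of the 7 lists were called at either age. The lowest adjusted p in the 7 lists was 0.261, in other risk locus genes at 10 months. Hdac4, the deacetylase whose level ran most like that of Ptk2b, averaged 47.7 CPM in KI libraries, against 56.4 CPM in control libraries, at 10 months, and 52.9 CPM in KI libraries, with 60.7 CPM in control libraries, at 3 months (averaged log2 fold change -0.22 ± 0.06, unadjusted p = 0.00121, adjusted p = 0.316, edgeR).

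**Figure D5:**
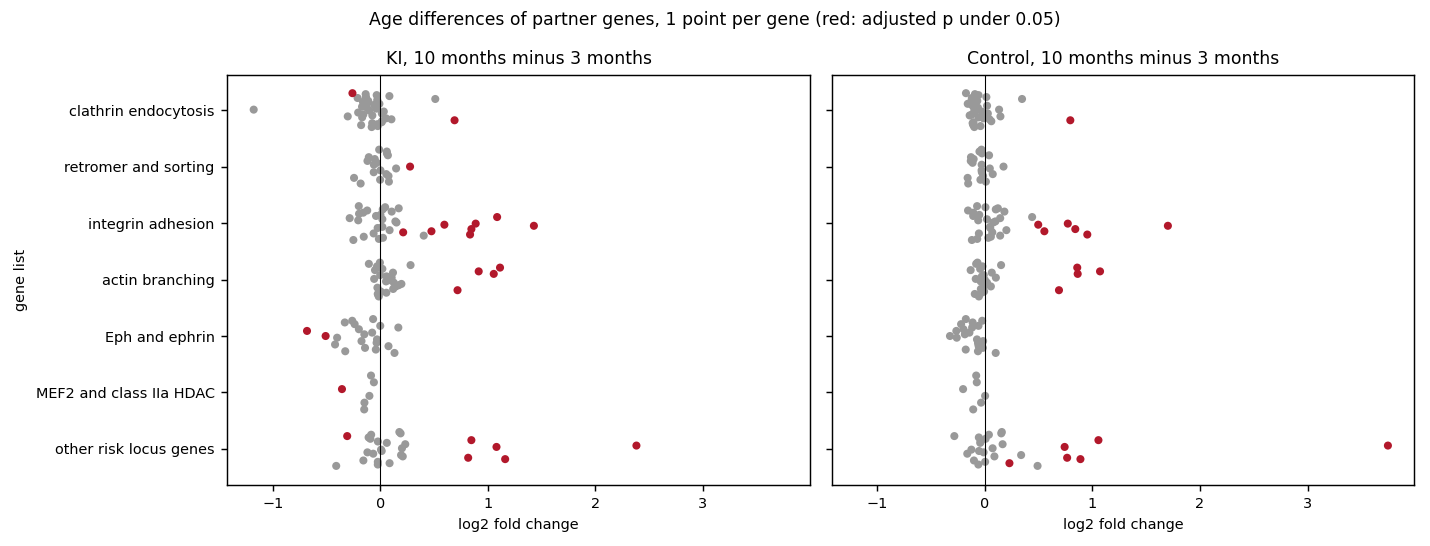
Log2 fold changes between 10 and 3 months of the genes of 7 lists, in KI on the left and control on the right, 1 point per gene, with calls at an adjusted p under 0.05 in red. The red points to the right of 0 are mostly in the integrin, actin and other risk locus lists, with 8 and 6 calls in integrin adhesion and 4 and 4 in actin branching.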

How the data were processed

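Cortex RNA of 20 libraries was sequenced. The authors deposited raw counts per gene with gene lengths, another deposited measure used only to scale levels per kilobase. Per the submitters' processing notes reads were placed on mm10; aligner, counter, strand setting and annotation release are not given in the sources used here. Totals ran from 42896149 to 57447015 counts.

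Counts were tested with edgeR 4.0.16 (R 4.3.3; filterByExpr, TMM factors 0.972 to 1.03, robust quasi-likelihood F test on 4 group means, 16 residual degrees of freedom), adjusted by Benjamini-Hochberg over 19623 genes and called under 0.05. CPM used TMM-scaled totals, and log2 CPM a prior count of 2. Exact permutation tests used 252 assignments of 5 against 5, with a smallest p of 0.00794. Alternatives were RLE scaling, other filters, DESeq2 1.42.0, limma-voom (limma 3.58.1), only the compared libraries, a replicate block, a threshold of 0.10 and leaving out libraries. The code was tested on simulated data. Shared exons came from GENCODE M21, similar sequences from BLAST, promoters from RefSeq.

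The members and lists were chosen with earlier results of these data known. Named genes were all 10 members, Abca7, up to 4 genes of smallest unadjusted p per list and the 3 genes most correlated with a member over 20 libraries, predicted genes (Gm, Rik) and genes averaging under 1 CPM excluded. The genes overlapping Abi3, Epha1 and Cass4, the copies of Cd2ap, Fermt3, Tmem163 and Adam17 were named after their values were seen, as were the libraries left out in pairs.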

Additional observations from a re-analysis of the deposited data

Results flagged for a closer look

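Within the 40 groups of 5 libraries (10 genes in 4 groups), 3 held a library far from the other 4, its gap to the nearest being more than 0.71 of the group's range (Dixon's test at 95%); chance flags about 1 group in 20. Picalm was 213 CPM in KI replicate 5 at 10 months, with the others at 169 to 181 CPM, in the library whose Xist and Ddx3y counts go against the protocol's male animals. Mef2c was 1023 CPM in KI replicate 3 at 3 months, with the others at 735 to 809 CPM, in the library that stood apart on the second principal component. Cass4 was 0.221 CPM in control replicate 9 at 3 months, with the others at 0.611 to 0.719 CPM, from a gene with at most 45 counts in any library.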

How the results depend on the processing

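Abi3 with age stayed called in every alternative, with log2 fold changes of 0.89 to 1.15 in KI (highest adjusted p 0.00393) and 0.94 to 1.13 in control (highest adjusted p 0.00497). The count of the 10 genes called changed in 1 case: for age in control it was 2 with limma-voom, which added Sorl1, against 1. Leaving out each library in turn gave 1 gene for age in each genotype and 0 in the 4 other comparisons. The numbers of the replicates were no sign of pairing: deviations of same-numbered libraries correlated above 0.1 in 3 of 18 cases, and for 1 of 20 libraries its own number gave the best match. Of the partner lists, the Eph and ephrin genes called lower with age in KI numbered 2, against 4 with DESeq2, 6 with limma-voom and 0 with the block, and the clathrin genes called lower numbered 1, against 3 and 4 with DESeq2 and limma-voom and 1 with the block. The replicate block left all 6 counts of the 10 genes as they were, and gave Ptk2b -0.04 at 3 months and -0.06 at 10 months for KI against control. KI and control share only the replicate numbers 6 and 7, so with the block their comparison rests on those numbers. The other numbers each hold a single genotype, which also limits the block's KI against control values given below. Depth limits Epha1 and Cass4, whose differences rest on 5 to 45 counts a library.

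Of 1768 values of single genes under alternatives (60 gene and comparison pairs), 171 changed sign, in 34 pairs. All were uncalled in both fits (lowest adjusted p 0.474, at most 0.34 in size on the log2 scale), so no direction is given for them, and the cause was not tested. Leaving out each library in turn, the ranges that crossed 0 were, for age in KI, Bin1 -0.049 to 0.087, Cd2ap -0.084 to 0.11, Epha1 -0.12 to 0.23 and Mef2c -0.055 to 0.089. They were, for age in control, Bin1 -0.033 to 0.066, Fermt2 -0.088 to 0.014 and Picalm -0.032 to 0.052. They were, for KI against control at 10 months, Abi3 -0.11 to 0.069, Bin1 -0.074 to 0.026, Cass4 -0.27 to 0.091, Cd2ap -0.10 to 0.0100, Epha1 -0.27 to 0.032 and Sorl1 -0.063 to 0.027. They were, for KI against control at 3 months, Abi3 -0.13 to 0.11, Bin1 -0.097 to 0.043, Cass4 -0.30 to 0.076, Cd2ap -0.083 to 0.11, Fermt2 -0.019 to 0.092, Mef2c -0.057 to 0.083 and Picalm -0.069 to 0.056. They were, for KI against control averaged over ages, Abi3 -0.068 to 0.049, Bin1 -0.060 to 0.0067, Cass4 -0.19 to 0.0040, Cd2ap -0.064 to 0.035 and Fermt2 -0.045 to 0.016. They were, for genotype by age, Abi3 -0.12 to 0.12, Bin1 -0.072 to 0.077, Cass4 -0.19 to 0.21, Cd2ap -0.15 to 0.038 and Ptk2b -0.063 to 0.021. With the replicate block the changed values were, for KI against control at 10 months Bin1 0.15, Picalm -0.040, Sorl1 0.0099, Mef2c -0.028 and Abi3 0.34, and for KI against control at 3 months Bin1 0.11, Picalm -0.11, Cd2ap -0.13, Mef2c -0.13, Fermt2 -0.037 and Abi3 0.28, and for KI against control averaged over ages Bin1 0.13, Picalm -0.074, Cd2ap -0.16, Mef2c -0.079 and Abi3 0.31. With limma-voom the changed values were, for age in KI Cd2ap 0.074, and for KI against control at 10 months Bin1 0.033, and for KI against control at 3 months Bin1 0.044, Picalm -0.050, Cd2ap -0.050, Mef2c -0.038, Cass4 0.077, Fermt2 -0.052 and Abi3 0.12, and for KI against control averaged over ages Bin1 0.038, Picalm -0.0082, Cd2ap -0.063 and Abi3 0.056, and for genotype by age Bin1 -0.012 and Abi3 -0.13. Without KI replicate 3 at 3 months and KI replicate 5 at 10 months the changed values were, for age in KI Bin1 -0.020 and Cd2ap 0.10, and for KI against control at 10 months Sorl1 0.017, and for KI against control at 3 months Bin1 0.043, Picalm -0.069, Cd2ap -0.083, Mef2c -0.057, Fermt2 -0.020 and Abi3 0.11, and for KI against control averaged over ages Bin1 0.021, Picalm -0.029, Cd2ap -0.068 and Abi3 0.055, and for genotype by age Bin1 -0.044, Cd2ap 0.032 and Abi3 -0.11. Without control replicates 8 and 10 at 3 months the changed values were, for age in KI Mef2c -0.015, and for age in control Fermt2 0.0014, and for KI against control at 3 months Mef2c -0.015, Cass4 0.14 and Abi3 0.019, and for KI against control averaged over ages Cd2ap -0.0058, Cass4 0.023, Fermt2 0.0083 and Abi3 0.0013, and for genotype by age Bin1 -0.0055 and Abi3 -0.035. With DESeq2 the changed values were, for age in KI Mef2c -0.013, and for genotype by age Abi3 -0.0064. With RLE scaling the changed values were, for age in KI Mef2c -0.013, and for genotype by age Abi3 -0.0050. Without the low-count filter the changed values were, for age in KI Mef2c -0.00099, and for genotype by age Abi3 -0.0060.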
